A study of Sus scrofa with 12 samples.

Results

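RING finger and F-box genes encode the parts of the ubiquitin system that choose which protein is marked for breakdown or for another fate. They were taken here as every gene whose symbol on the array begins with RNF and a digit, FBXO, FBXL, FBXW or TRIM, with the probe set of highest mean signal standing for each gene. The rule gave 135 of the 12362 named genes on the array, and used no difference between groups. Of these, 54 carry an RNF symbol, 36 a TRIM symbol, 28 an FBXO symbol, 12 an FBXL symbol and 5 an FBXW symbol. With a floor on the mean signal over all 12 arrays, 124 of the 135 were tested, among 10008 named genes tested. The 11 genes under that floor were FBXO10, FBXO15, FBXO16, FBXO36, FBXO43, RNF32, RNF208, TRIM36, TRIM40, TRIM58 and TRIM69.

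A ubiquitin ligase brings a substrate together with a ubiquitin-carrying conjugating enzyme. In RING proteins, most TRIM proteins among them, a zinc-binding RING domain holds the conjugating enzyme directly. An F-box protein is instead the exchangeable substrate receptor of a cullin-RING complex. In striated muscle some of these proteins are known for the turnover of contractile and signalling proteins, and FBXO32 (atrogin-1) is a classical marker of muscle atrophy. Symbols were matched to pig genes, and roles are given as known mainly from human and mouse.

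The arrays measured RNA of the left ventricle of female pigs 13 months old, killed 6 months after surgery, in a design of 12 pigs with 6 per treatment. Paced pigs (EXP) had complete atrioventricular block made with an ablation catheter, followed by implantation of a pacemaker in VDD mode, in which atrial beats are sensed and trigger a ventricular stimulus, here from a lead on the septum of the right ventricle. The control pigs are labelled CTL and called Sham in the design text, and the protocol says that a ventricular and an atrial lead were fixed in all pigs, so whether controls carried leads is not clear. Tissue came from the septum and from the free wall at the level of the papillary muscle, which gave 4 groups of 3 arrays: septum of paced pigs, septum of control pigs, free wall of paced pigs and free wall of control pigs. The labels give the arrays numbers but do not tie an array to a pig, so septum and free wall arrays may share animals, and a p-value here reflects only how these arrays varied.

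Signals are the authors' RMA values on a log2 scale, where a difference of 1 is a 2-fold difference, and array medians lay between 4.31 and 4.45. Cardiac muscle markers were present throughout, with mean signals of 11.3 to 12.5 for the 6 of 10 listed genes on the array, while 3 skeletal muscle markers lay between 3.04 and 5.33. Array 2 of the paced free wall stood apart, at -45.3 on the first principal component against -19.2 to 22.3 for the other 11 arrays. Many of the member results that use it are therefore also given without it. The other results, among them the smaller lists by role and all genes that are no members, are given with it only. Both control arrays numbered 1 had low fibroblast markers, at -0.841 in septum and -0.857 in free wall relative to the mean of all arrays (7 of 8 listed genes on the array).

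With no block for the array number, no member passed limma's test in any of the 7 comparisons, at a threshold of 0.05 on p-values adjusted by Benjamini and Hochberg's method across the 20669 tested probe sets. The share of all tested probe sets that passed was itself small, 0.00968% for the septum against the free wall over both treatments and for pacing in the septum, 0.00484% for pacing in the free wall and for pacing averaged over the regions, and 0.0% for the other 3 comparisons. The smallest adjusted p of a member was 0.095. The genes below are therefore described by their values on each array, and "higher" and "lower" say where the means lay.

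Between arrays, most of these genes moved little. The SD over the 12 arrays had a median of 0.19 log2 units among the 124 tested members, against 0.21 among all tested probe sets, and 8 members had an SD above 0.35. That is 6.45% of the members, against 12.6% of all tested probe sets. The widest spread was that of RNF135, with an SD of 0.89 and values from 3.22 to 6.14. Only 0.421% of tested probe sets had an SD as large. RNF144B followed with an SD of 0.68, then RNF150 with 0.48, FBXO32 with 0.40, TRIM31, RNF128 and RNF220 with 0.39 each, RNF24 with 0.35, TRIM50 with 0.33 and FBXW5 with 0.32.

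**Figure D1:**
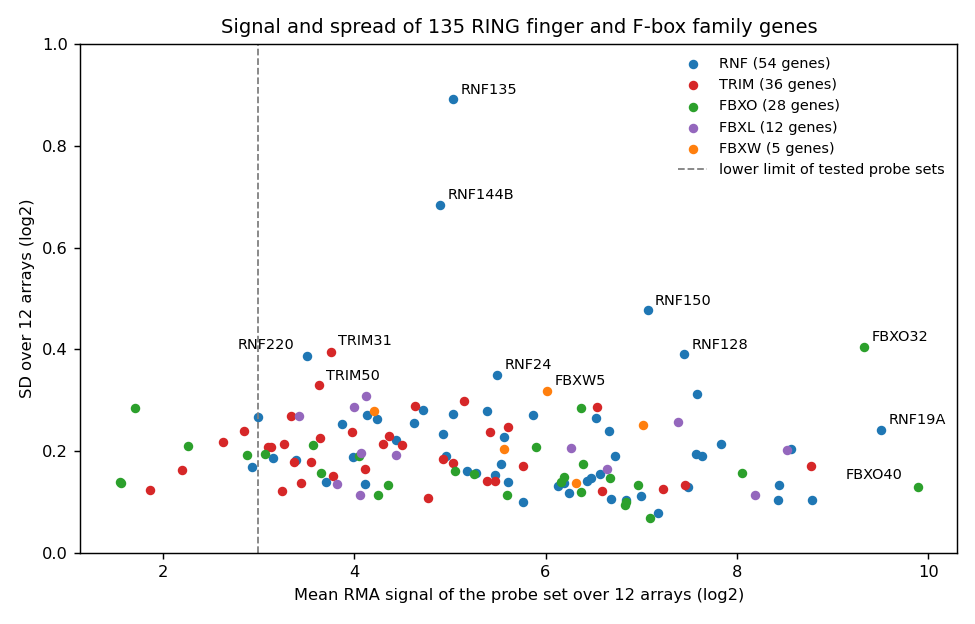
Mean RMA signal (log2, horizontal axis) against the SD over the 12 arrays (log2, vertical axis), with 1 point for each of the 135 genes coloured by symbol family. The dashed line is the lower limit of tested probe sets. RNF135 and RNF144B lie above all other members in spread, at SDs of 0.89 and 0.68.

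The members with the brightest probe sets were FBXO40 with a mean of 9.89, RNF19A with 9.51 and FBXO32 with 9.33. Next came RNF7 and TRIM55 with 8.78 each, RNF11 with 8.57, FBXL17 with 8.53, RNF146 with 8.44, RNF10 with 8.43 and FBXL5 with 8.19. FBXO40 is a muscle F-box protein that acts on the insulin receptor substrate IRS1, RNF7 is a RING subunit of cullin complexes, TRIM55 (MuRF2) sits on the sarcomere, and FBXL5 is an iron-sensing F-box protein. Signals of different probe sets depend on the probes as well as on the RNA, so this order is no order of abundance. FBXO40 and RNF7 were also steady, with SDs of 0.13 and 0.10.

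The comparison of septum with free wall asks which genes differ between the 2 regions of the left ventricle, with the paced pigs in one comparison and the control pigs in another. RNF144B, a RING-between-RING ligase reported in human cells to act on the cell death protein BAX, showed the widest gap of any member. Its signal was 5.65, 5.62 and 6.09 in the septum of paced pigs, against 4.07, 4.24 and 4.39 in their free wall. All 3 septum arrays lay more than 1 log2 unit above the highest free wall array. The means were 5.79 ± 0.26 in septum and 4.23 ± 0.16 in free wall (SD, n = 3 each). The difference was 1.55 on the log2 scale with a standard error of 0.24, a 2.93-fold difference with a limma 95% interval of 1.04 to 2.07 log2 units, an unadjusted p of 2.98e-05 and an adjusted p of 0.142. Without array 2 of the paced free wall the difference was 1.56, with an adjusted p of 0.282.

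In control pigs RNF144B was 5.47, 4.74 and 5.06 in septum, against 4.99, 4.16 and 4.32 in free wall. Here 1 free wall array, that of number 1, lay above the lowest septum array, so the groups overlapped. The difference was 0.60 log2 units with a standard error of 0.24 (limma unadjusted p 0.0263, adjusted p 0.997). Within each array number the septum array was the higher one. Over both treatments the 6 septum arrays ran from 4.74 to 6.09 with a median of 5.55, against 4.07 to 4.99 with a median of 4.28 in the 6 free wall arrays. The difference there was 1.08 log2 units with a standard error of 0.17, a 2.11-fold difference (limma adjusted p 0.095). Without array 2 of the paced free wall the difference over both treatments was again 1.08 (limma adjusted p 0.17). With all arrays and the array number as a replicate block the adjusted p was 0.0479. Same-numbered arrays deviated together in control pigs but not in paced pigs, and whether they share animals is not known.

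RNF150, a membrane-spanning RING protein with a protease-associated domain, was the only member whose septum and free wall arrays did not overlap over both treatments. Its signal was 7.67, 7.38 and 7.83 in the septum of paced pigs, against 6.24, 6.68 and 6.82 in their free wall. In control pigs it was 7.04, 7.59 and 7.12 in septum, against 6.92, 6.96 and 6.57 in free wall. The lowest of the 6 septum arrays and the highest of the 6 free wall arrays were thus both control arrays, at 7.04 in septum and 6.96 in free wall. Of all tested probe sets, 0.668% had no overlap between the 6 septum and 6 free wall arrays.

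The difference for RNF150 was 1.05 log2 units in paced pigs with a standard error of 0.20, a 2.07-fold difference (limma unadjusted p 0.000211, adjusted p 0.291). In control pigs it was 0.43 with the same standard error of 0.20 (limma unadjusted p 0.0498, adjusted p 0.997), and 0.26 without array 2 of the control septum. Over both treatments it was 0.74 with a standard error of 0.14, a 1.67-fold difference (limma adjusted p 0.254). Without array 2 of the paced free wall the difference was 1.10 in paced pigs and 0.765 over both treatments (limma adjusted p 0.282 and 0.174).

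RNF217, another RING-between-RING ligase, known in mice to act on the iron exporter ferroportin, ran the other way. Its signal was 5.41, 5.30 and 5.19 in the septum of paced pigs, against 5.86, 5.57 and 5.75 in their free wall. In control pigs it was 5.57, 5.38 and 5.44 in septum, against 5.82, 5.75 and 5.81 in free wall. No septum array exceeded a free wall array of the same treatment, and over both treatments the ranges met at 5.57. The differences were -0.43 in paced pigs, -0.33 in control pigs and -0.38 over both (limma adjusted p 0.456, 0.997 and 0.269). RNF144B and RNF217 are 2 of the 6 tested RING-between-RING ligases, so the members of that structural class lay on both sides of 0.

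FBXL12, an F-box protein known from cell-cycle control, was 4.61, 4.17 and 4.15 in the septum of paced pigs, against 3.55, 3.68 and 3.96 in their free wall. The paced groups did not overlap, and the difference was 0.58 log2 units with a standard error of 0.16 (limma unadjusted p 0.00325, adjusted p 0.478). In control pigs FBXL12 was 4.25, 3.98 and 4.09 in septum, against 3.79, 4.02 and 3.75 in free wall. There the groups overlapped, and the difference was 0.25 (limma unadjusted p 0.134). Leaving out array 2 of the paced free wall gave paced differences of 0.56 for FBXL12 and -0.51 for RNF217 (adjusted p 0.363 and 0.282).

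**Figure D2:**
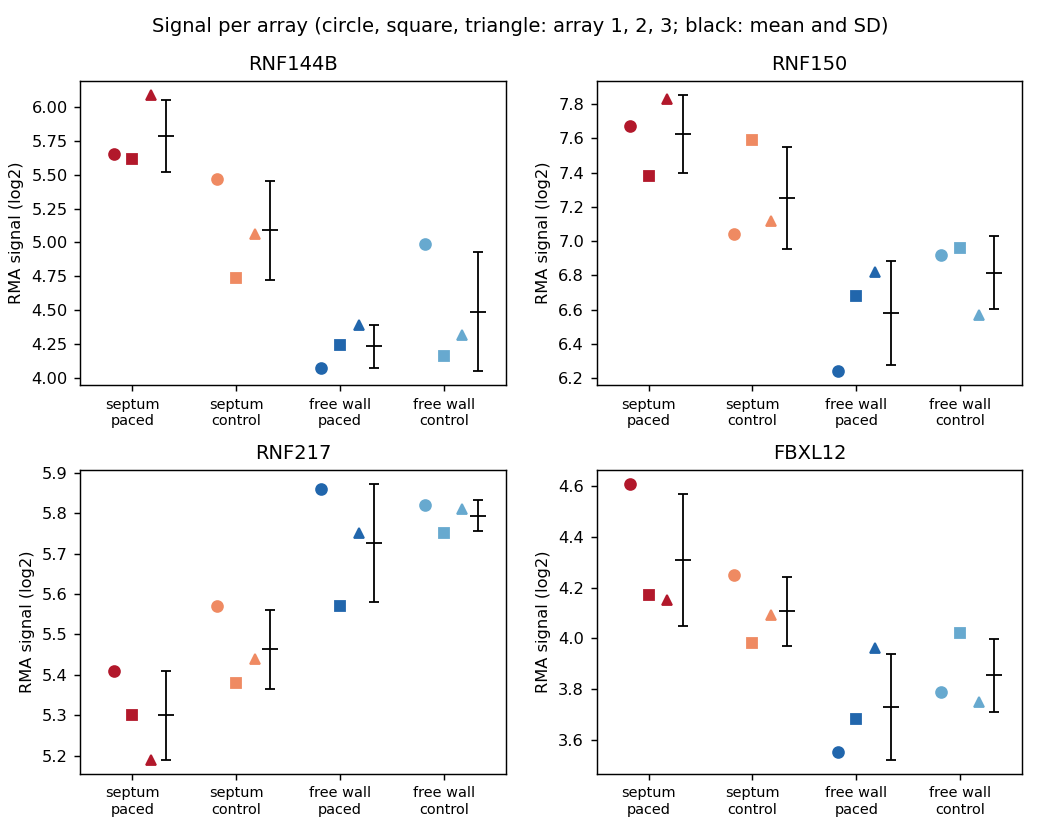
RMA signal (log2, vertical axes) of RNF144B, RNF150, RNF217 and FBXL12 on each array, by group, with circle, square and triangle for arrays 1, 2 and 3 and the mean and SD of each group in black. The axes do not start at 0. RNF144B and RNF150 lie higher in the septum and RNF217 lower, with the gap of RNF144B widest in paced pigs (5.62 to 6.09 in septum against 4.07 to 4.39 in free wall).

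FBXL7, an F-box protein reported to act on the mitotic kinase Aurora A, was 6.37, 6.45 and 6.59 in the septum of paced pigs, against 6.35, 6.06 and 6.17 in their free wall. In control pigs it was 6.22, 6.42 and 6.43 in septum, against 5.87, 6.14 and 6.08 in free wall. The septum was the higher region in both treatments without overlap, though in paced pigs the lowest septum array, at 6.37, lay just above the highest free wall array, at 6.35. The differences were 0.28 in paced pigs and 0.33 in control pigs (limma unadjusted p 0.0454 and 0.0218, adjusted p 0.736 and 0.997). Without array 2 of the paced free wall the paced difference was 0.21 (unadjusted p 0.133).

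FBXL4, an F-box protein of mitochondria that restrains mitophagy, was 7.34, 7.37 and 6.87 in the septum of paced pigs, against 7.66, 7.52 and 7.61 in their free wall. No septum array of paced pigs reached the free wall arrays, and the difference was -0.40 (limma unadjusted p 0.0317), or -0.24 without array 3 of the paced septum. In control pigs the groups overlapped, with 7.05, 7.56 and 7.08 in septum against 7.42, 7.56 and 7.59 in free wall. RNF220, a RING ligase, showed its clearest gap in control pigs, with 4.02, 3.97 and 3.85 in septum against 3.04, 3.54 and 3.47 in free wall. That difference was 0.60 (limma unadjusted p 0.0196, adjusted p 0.997), and in paced pigs, where the groups overlapped, RNF220 was 3.35, 3.32 and 3.84 in septum against 3.12, 3.69 and 2.82 in free wall. The signal of RNF220 was close to the floor of the tested probe sets, 2.998, and array 3 of the paced free wall lay below it.

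RNF44, a RING finger protein, and TRIM65, a ligase of the antiviral RNA sensor MDA5, were higher in the septum of paced pigs without overlap, by 0.37 and 0.31 log2 units (limma unadjusted p 0.0297 and 0.0406). With array 2 of the paced free wall left out these were 0.33 for RNF44 (unadjusted p 0.074) and 0.35 for TRIM65 (unadjusted p 0.0384), and FBXL4 gave -0.44 (unadjusted p 0.0379). TRIM65 gave 0.16 without array 1 of the paced free wall, its lowest array. For TRIM65 the nearest arrays were at 5.12 in septum and 5.11 in free wall. RNF123, known to act on the cell-cycle inhibitor p27, and FBXL18 were higher by 0.32 and 0.41 with overlapping arrays (limma unadjusted p 0.0289 and 0.0392). RNF207, known to affect the cardiac HERG potassium channel, was higher in the septum of control pigs by 0.34 (limma unadjusted p 0.0423), with 7.76, 8.08 and 8.17 in septum against 7.44, 7.87 and 7.67 in free wall, which overlapped.

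Counted over the 124 members, 10 had a limma unadjusted p under 0.05 between septum and free wall in paced pigs, 8 higher and 2 lower in septum. That is 8.06% of members, against 6.73% of all tested probe sets (4.3% higher and 2.43% lower). In control pigs 6 members did, 5 higher and 1 lower, which is 4.84% against 3.67% of all tested probe sets (2.12% higher and 1.55% lower). Over both treatments 11 members did, 9 higher and 2 lower, or 8.87% against 7.83% (4.79% higher and 3.04% lower). The groups did not overlap for 13 members in paced pigs (10.5%, against 9.91% of all tested probe sets) and for 16 in control pigs (12.9%, against 13.1%). These shares lay near those of all tested probe sets, and the median difference of the members was 0.06 log2 units in paced pigs and 0.01 in control pigs, against 0.01 in each for all tested probe sets. Without array 2 of the paced free wall, 15 members had an unadjusted p under 0.05 in paced pigs (10.3% of all tested probe sets did), 8 in control pigs (5.84% did) and 20 over both treatments (14.3% did).

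**Figure D3:**
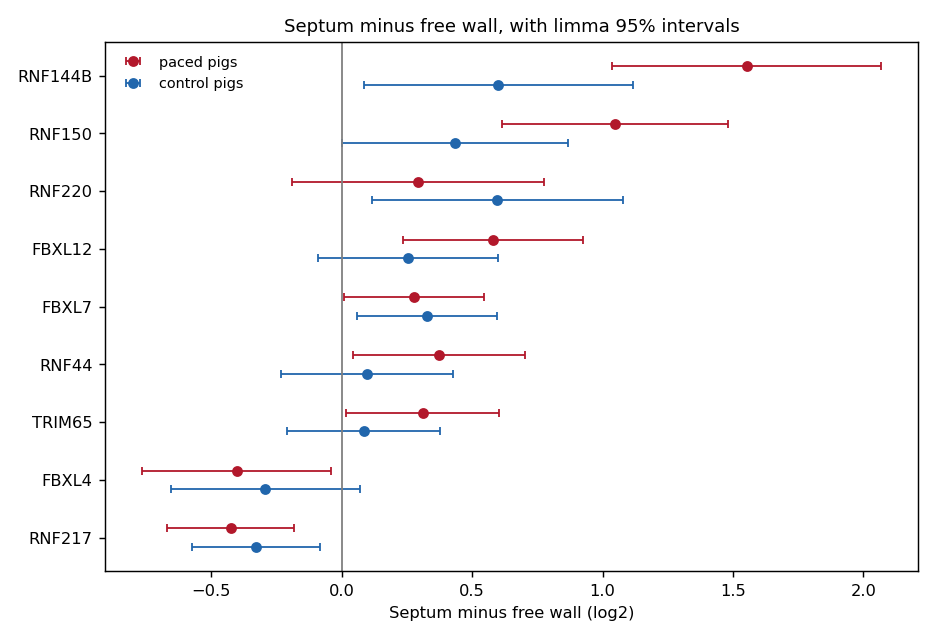
Septum minus free wall (log2, horizontal axis) for 9 members, with limma 95% intervals, in paced pigs (red, upper of each pair) and control pigs (blue, lower). RNF144B has the largest difference, at 1.55 in paced pigs and 0.60 in control pigs, and RNF217 and FBXL4 lie below 0 in both.

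Vascular endothelium markers (5 of 8 listed genes on the array, none under the floor) had a summed level, as the mean log2 signal relative to all arrays, of -0.07 to 0.386 in the septum of paced pigs, against -0.362 to 0.18 in their free wall, which overlapped. In control pigs it was -0.252 to 0.196 in septum, against -0.326 to 0.152 in free wall. Smooth muscle markers (5 of 8 genes) were at -0.039 to 0.455 in the septum of paced pigs, against -0.091 to 0.273 in their free wall. The part of other cell types in the regional differences was not tested, and in pieces of tissue fewer cells of a type and less RNA per cell cannot be told apart.

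The comparison of paced with control pigs sets ablation, atrioventricular block and pacing together against the controls called Sham, in each region. Their parts cannot be told apart here, and a pacing difference or effect means all of them together. RNF135 (Riplet), the ligase that activates the antiviral RNA sensor RIG-I, was lower in paced pigs in both regions. In septum it was 4.68, 3.69 and 4.42 in paced pigs, against 5.45, 6.14 and 5.27 in control pigs. In free wall it was 3.22, 5.26 and 5.08 in paced pigs, against 5.49, 6.03 and 5.70 in control pigs. Neither pair of groups overlapped, but in the paced free wall array 1 lay far below the other 2, which were within 0.5 log2 units of the lowest control array.

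The difference for RNF135 was -1.36 in septum with a standard error of 0.46, 2.56-fold lower (limma unadjusted p 0.0131, adjusted p 0.992). In free wall it was -1.22 with a standard error of 0.46, 2.33-fold lower (limma unadjusted p 0.0225, adjusted p 0.998), and without array 1 of the paced free wall it was -0.57. Without array 2 of the paced free wall the free wall difference was -1.59 (adjusted p 0.688).

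With septum and free wall arrays of the same number averaged, RNF135 was 3.95, 4.48 and 4.75 in paced pigs, against 5.47, 6.09 and 5.49 in control pigs. The highest averaged value of paced pigs, 4.75, lay below the lowest of control pigs, 5.47. The averaged difference was -1.29 with a standard error of 0.24 (limma unadjusted p 0.000635, adjusted p 0.372). It ran from -1.47 to -1.07 when arrays of 1 number were left out in turn, with adjusted p from 0.379 to 0.735. The averaging pairs arrays by number, which the labels do not tie to 1 animal.

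FBXO32 (atrogin-1), the F-box protein of muscle atrophy, was also lower in paced pigs. In septum it was 8.89, 9.01 and 8.65 in paced pigs, against 9.97, 9.31 and 9.51 in control pigs, without overlap. In free wall it was 9.40, 9.13 and 9.15 in paced pigs, against 9.98, 9.32 and 9.65 in control pigs, where 1 paced array lay above the lowest control array. The control arrays numbered 1, which had the low fibroblast markers, were the highest of their groups.

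The difference for FBXO32 was -0.75 in septum with a standard error of 0.20, 1.68-fold lower with a 95% interval of -1.18 to -0.31 (limma unadjusted p 0.00285, adjusted p 0.943). Without array 1 of the control septum it was -0.56. In free wall it was -0.42 with the same standard error of 0.20 (limma unadjusted p 0.055, adjusted p 0.998), or -0.38 without array 2 of the paced free wall. It was -0.26 without array 1 of the control free wall, one of the 2 arrays with low fibroblast markers. Averaged over the regions FBXO32 was 9.15, 9.07 and 8.90 in paced pigs, against 9.98, 9.32 and 9.58 in control pigs, and the difference was -0.58 (limma unadjusted p 0.00814, adjusted p 0.837). The averaged difference was -0.41 without the control arrays numbered 1, and -0.60 without the paced arrays numbered 2 (limma adjusted p 0.664 for the latter). The difference between the effect in septum and that in free wall was -0.32, with a 95% interval of -0.94 to 0.29 (limma unadjusted p 0.273).

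RNF144B differed with pacing in septum, where paced arrays at 5.65, 5.62 and 6.09 lay above control arrays at 5.47, 4.74 and 5.06. That difference was 0.70 with a standard error of 0.24, 1.62-fold higher (limma unadjusted p 0.0124, adjusted p 0.992). In free wall the paced arrays, at 4.07, 4.24 and 4.39, overlapped the control arrays at 4.99, 4.16 and 4.32, with a difference of -0.26 (limma unadjusted p 0.299), which was -0.01 without array 1 of the control free wall. The effect in septum minus that in free wall was 0.95 with a standard error of 0.33 and a 95% interval of 0.22 to 1.68 (limma unadjusted p 0.0148, adjusted p 0.999). RNF150 gave 0.38 in septum and -0.24 in free wall (-0.07 without array 1 of the paced free wall), and a difference of effects of 0.61 (limma unadjusted p 0.0496, adjusted p 0.999). When array 2 of the paced free wall was left out the differences of effects were 0.96 for RNF144B and 0.66 for RNF150 (unadjusted p 0.0249 and 0.0512). Each of these rests on the same 12 arrays as the regional differences above.

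RNF4, a nuclear ligase of SUMO-tagged proteins, was 6.16, 6.41 and 6.28 in the free wall of paced pigs, against 6.48, 6.58 and 6.54 in that of control pigs. The groups did not overlap and the difference was -0.25 with a standard error of 0.11 (limma unadjusted p 0.0414, adjusted p 0.998), or -0.31 without array 2 of the paced free wall (adjusted p 0.688). In septum RNF4 was 6.62, 6.36 and 6.49 in paced pigs, against 6.66, 6.57 and 6.55 in control pigs, which overlapped. TRIM24, a chromatin-binding nuclear co-regulator, was 6.47, 6.24 and 6.44 in paced pigs with regions averaged, against 6.89, 6.61 and 6.59 in control pigs. The averaged difference was -0.32 (limma unadjusted p 0.0273), and -0.24 without the arrays numbered 2 of paced pigs (unadjusted p 0.0843).

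**Figure D4:**
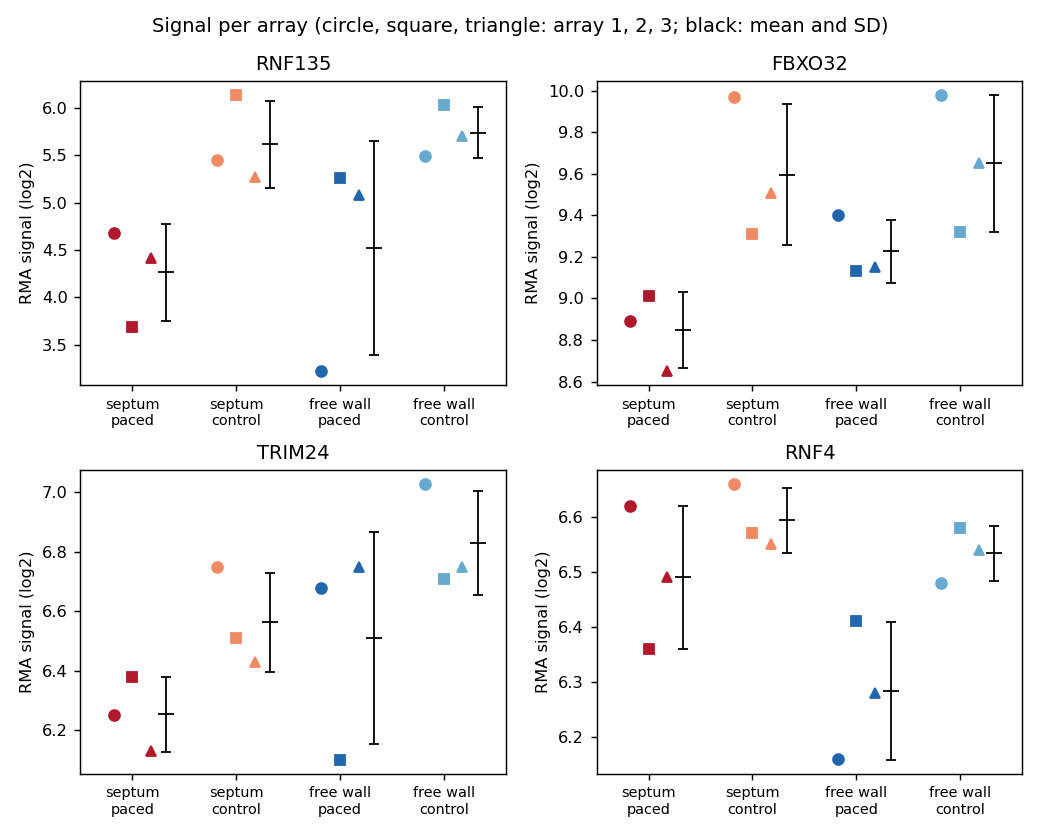
RMA signal (log2, vertical axes) of RNF135, FBXO32, TRIM24 and RNF4 on each array, by group, with circle, square and triangle for arrays 1, 2 and 3 and the mean and SD of each group in black. The axes do not start at 0. RNF135 lies lower in paced than in control arrays in both regions, with the paced free wall spread from 3.22 to 5.26.

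TRIM32, a ligase whose human gene is mutated in a limb-girdle muscular dystrophy, was 2.94, 3.11 and 3.41 in the septum of paced pigs, against 3.66, 3.54 and 3.51 in that of control pigs. These groups did not overlap, and the difference was -0.42 (limma unadjusted p 0.0449, adjusted p 0.992). In free wall TRIM32 was 3.18, 3.86 and 3.18 in paced pigs, against 3.37, 3.12 and 3.15 in control pigs, where the high value was that of paced array 2. The effect in septum minus that in free wall was -0.61 (limma unadjusted p 0.0389), and -0.38 without that array (unadjusted p 0.0744). The signal was close to the floor of the tested probe sets.

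With the regions averaged, RNF220 was 3.24, 3.51 and 3.33 in paced pigs, against 3.53, 3.76 and 3.66 in control pigs. FBXW4, an F-box protein with WD repeats, was 5.72, 5.65 and 5.68 in paced pigs, against 5.32, 5.53 and 5.50 in control pigs. Neither pair overlapped. The differences were -0.29 for RNF220 and 0.24 for FBXW4 (limma unadjusted p 0.0268 and 0.0352). Without the paced arrays numbered 2 they were -0.37 and 0.25 (limma unadjusted p 0.0114 and 0.0454). FBXW4 was the only one of the 5 members at an unadjusted p under 0.05 in this comparison that was higher in paced pigs.

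Counted over the members, 2 had a limma unadjusted p under 0.05 for pacing in the free wall, both lower in paced pigs. That is 1.61% of members, against 4.56% of all tested probe sets (1.96% higher and 2.59% lower). In septum 4 did, 1 higher and 3 lower, or 3.23% against 4.66% (2.33% in each direction). With regions averaged 5 did, 1 higher and 4 lower, or 4.03% against 5.55% (2.6% higher and 2.96% lower). For the effect in septum minus that in free wall 3 did, 2 above and 1 below 0, or 2.42% against 2.75% (1.43% above and 1.32% below). The paced and control arrays did not overlap for 12 members in the free wall (9.68%, against 8.16% of all tested probe sets) for 12 in septum (9.68%, against 10.5%) and for 14 with regions averaged (11.3%, against 10.5%). Without array 2 of the paced free wall, 8 members had an unadjusted p under 0.05 in the free wall (7.01% of all tested probe sets did), 10 in septum (6.86% did) and 3 for the difference of the effects (3.0% did). With regions averaged and the paced arrays numbered 2 left out, 5 did (7.43% of all tested probe sets did).

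Pacing differences of most members were small. In the free wall 123 of the 124 lay within 0.5 log2 units of 0, and in septum 121. In the free wall 48 members lay above 0 and 76 below, with a median of -0.05 against 0.00 for all tested probe sets. Without array 2 of the paced free wall the medians were -0.03 for the members and -0.01 for all tested probe sets. In septum 62 lay above, 60 below and 2 at 0, with a median of 0.00, the same as for all tested probe sets to 2 decimals.

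Among the ligases known from heart or skeletal muscle, 9 of 12 listed genes were measured, and TRIM63, TRIM54 and FBXO25 were not analysed here. In septum 8 of the 9 lay below 0 with pacing and the median was -0.12, with FBXO32 and TRIM32 lower at an unadjusted p under 0.05. In free wall 5 of the 9 lay below 0, with a median of -0.10. FBXO40 was 9.64, 9.85 and 9.74 in the septum of paced pigs, against 10.09, 9.87 and 9.90 in that of control pigs, 0.21 lower without overlap (limma unadjusted p 0.0746). TRIM55 was 8.76, 8.89 and 8.69 in the septum of paced pigs, against 8.54, 8.95 and 9.05 in that of control pigs, which overlapped. The 95% interval of its difference ran from -0.41 to 0.27. FBXL22, an F-box protein of the sarcomeric Z-disc, was the 1 member above 0 in septum, at 4.61, 4.59 and 4.66 in paced pigs against 4.11, 4.46 and 4.48 in control pigs (difference 0.27, limma unadjusted p 0.089).

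FBXO30, known from mouse muscle atrophy, and FBXO21 differed by -0.01 and -0.12 with pacing in septum, and by -0.14 and -0.10 in free wall. TRIM72 (MG53), a membrane repair protein, differed by -0.12 in septum and 0.00 in free wall. RNF207 differed by -0.08 in septum and 0.07 in free wall. The 95% intervals of all 4 genes held 0 in both regions.

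**Figure D5:**
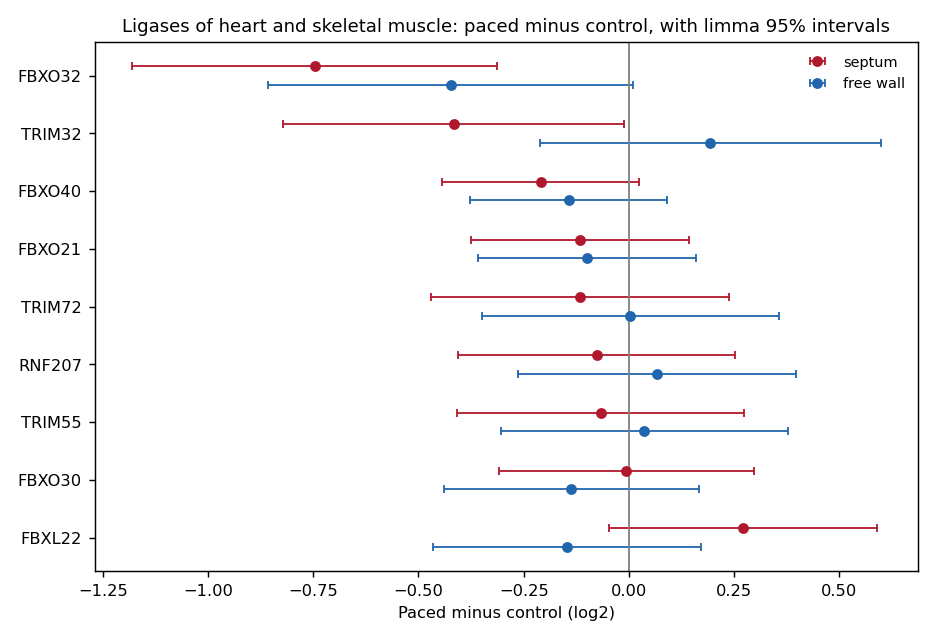
Paced minus control (log2, horizontal axis) for the 9 measured ligases known from heart or skeletal muscle, with limma 95% intervals, in septum (red, upper of each pair) and free wall (blue, lower). FBXO32 is furthest below 0 in both regions, at -0.75 in septum and -0.42 in free wall, and the intervals of FBXO32 and TRIM32 in septum are the only ones that leave out 0.

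Of 6 measured RING-between-RING ligases, 5 lay below 0 with pacing in the free wall, with a median of -0.17, and 4 in septum, with a median of -0.07. Of 9 measured nuclear ligases of chromatin and DNA repair, all lay below 0 in the free wall, with a median of -0.11, while 6 lay above 0 in septum. In the free wall only RNF4 among them had an unadjusted p under 0.05, none did in septum, and with regions averaged TRIM24 had one. Of 7 measured members of antiviral signalling, RNF135 alone had one, in both regions. TRIM31 and TRIM21 gave 0.41 and -0.21 in the free wall (limma unadjusted p 0.181 and 0.283). For TRIM31 array 2 of the paced free wall was the highest, at 4.66 against a median of 3.65 over the 6 free wall arrays. The TRIM31 difference is given with that array only. Of 10 ligases of the endoplasmic reticulum and other inner membranes, 8 lay above 0 in septum and 4 in free wall, and none had an unadjusted p under 0.05.

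Between the regions, all 4 measured F-box proteins of the clock, iron and mitochondria lay below 0 in paced pigs, with a median of -0.23. FBXL17, a quality-control receptor, gave -0.28 and FBXL5 gave -0.17, beside the -0.40 of FBXL4. A second probe set of FBXL17 gave 0.11, on the other side of 0. In control pigs 3 of these 4 lay below 0. Of 7 measured cell-cycle F-box proteins, 4 lay above 0 in paced pigs, FBXL12 furthest. The 4 measured F-box proteins that bind sugar chains lay on both sides of 0.

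Macrophage markers (8 of 10 listed genes on the array, none under the floor) had a summed level of -0.353 to -0.005 in the free wall of paced pigs, against 0.097 to 0.235 in that of control pigs, without overlap. In septum it was -0.033 to 0.031 in paced pigs, against -0.196 to 0.26 in control pigs, which overlapped. Genes of the interferon response (12 of 15 on the array) were at -0.434 to 0.25 in the free wall of paced pigs, against -0.302 to 0.511 in that of control pigs. In septum they were at -0.427 to 0.235 in paced pigs, against -0.442 to 0.239 in control pigs. The part of macrophages and of the interferon response in the RNF135 differences was not tested in either region.

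Fibroblast markers (7 of 8 listed genes on the array, none under the floor) lay above 0 with pacing for all 7 genes in both regions, with medians of 0.41 in free wall and 0.38 in septum. Their summed level was 0.11 to 0.33 in the free wall of paced pigs, against -0.857, 0.342 and 0.199 in control arrays 1, 2 and 3. In septum it was 0.026 to 0.18 in paced pigs, against -0.841, 0.312 and -0.281 in control pigs, so the groups overlapped in both regions. The differences of these genes thus include the low control arrays numbered 1. Smooth muscle markers lay above 0 for 5 of 5 genes in free wall and 4 of 5 in septum, with medians of 0.14 and 0.34. Control arrays numbered 1 were again the lowest, at -0.367 in free wall and -0.479 in septum. The part of these cell types in the lower FBXO32 and RNF135 signals of paced pigs was not tested.

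The rest of the ubiquitin pathway was counted from fixed lists. Of 21 measured genes of the cullin-RING core and its regulators, 1 had a limma unadjusted p under 0.05 for pacing in the free wall, UBA3 of the NEDD8-activating enzyme at 0.27, and none did in septum. Of all tested probe sets, 4.56% did in free wall and 4.66% in septum. Of 23 genes for ubiquitin and its activating and conjugating enzymes, UBE2T did in the free wall, at -0.34, and none in septum. Of 31 proteasome subunits none did in either region, and the medians were 0.00 in free wall and 0.02 in septum. None of these lists held a gene that passed after adjustment.

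Among 15 other ligases of muscle and heart, ASB2, a cullin adaptor that acts on filamins, differed by -0.32 with pacing in the free wall and by -0.30 in septum (limma unadjusted p 0.0328 and 0.043). Among 21 genes of insulin, glucocorticoid and FOXO signalling upstream of the atrophy ligases, FOXO1, a transcription factor that drives FBXO32, differed by -0.40 with pacing in the free wall (limma unadjusted p 0.044). INSR, the insulin receptor, differed by -0.53 in septum (limma unadjusted p 0.0355). MSTN (myostatin), which limits muscle growth, was 0.91 higher in paced pigs with regions averaged (limma unadjusted p 0.0137, adjusted p 0.867).

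The same list lay mostly above 0 between septum and free wall of paced pigs, with 17 of 21 above 0 and a median of 0.22, against a median of 0.01 for all tested probe sets. FOXO1 was higher by 0.65 in septum (limma unadjusted p 0.00318, adjusted p 0.478) and FOXO4 by 0.46 (limma unadjusted p 0.0261), while IGF1, the growth factor upstream of this signalling, differed by -0.71 (limma unadjusted p 0.0355). In control pigs 15 of 21 lay above 0, with a median of 0.05 and none at an unadjusted p under 0.05. FBXO32 itself was -0.38 between septum and free wall of paced pigs and -0.05 in control pigs (limma unadjusted p 0.0828 and 0.793).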

How the data were processed

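The deposited values are log2 signals. Per the submitters' processing notes, the authors used Affymetrix Expression Console 1.4 and RMA. Genes came from the platform annotation: of 27558 probe sets, 13323 had 1 symbol, 357 had several and were not used for naming, and 13878 had none. The lowest 25% by mean signal over all arrays were left out (floor 2.998), which kept 20669. The test was limma 3.58.1 (R 4.3.3) on 4 group means that share 1 variance, two-sided, with Benjamini-Hochberg adjustment over all 20669 and a threshold of 0.05. For the regions averaged, arrays of the same number were averaged first. The script was tested on simulated data. The number of arrays limits the precision.

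The members, the role lists and the genes named whatever their values (RNF144B, RNF150, RNF135, FBXO32 and TRIM63, which was not analysed here) were chosen with earlier results of these data known. Otherwise the genes named were, in each direction, up to 8 with the largest difference among those with an unadjusted p under 0.05 and no overlap, the 3 smallest p of each list, and the 10 highest means and SDs. RNF123, FBXL18, RNF207, TRIM55, TRIM72, FBXO30, FBXO21 and FBXL22 fall outside this in some comparisons and were named after their values were seen.

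Same-numbered septum and free wall arrays deviated together in control pigs (correlations 0.318, 0.252 and 0.245), which meets the rule for a pairing there. The printed values come from the fit without a block, so standard errors and p-values within control pigs leave that pairing out. Within control pigs the block led to no member's call. Over 8 other settings, the block among them, RNF144B had a limma adjusted p of 0.546 to 0.998 between regions in control pigs. The genome build is not given in the sources used here.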

Additional observations from a re-analysis of the deposited data

How the results depend on the processing

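No member passed the adjusted threshold under any alternative, except RNF144B with the replicate block: 1 member called between septum and free wall in paced pigs (adjusted p 0.0414) and 1 over both treatments (adjusted p 0.0479). In paced pigs the number showed no sign of a pairing, since same-numbered septum and free wall arrays did not deviate together (correlations 0.089, -0.173 and -0.181). With so few arrays this cannot tell whether they share a pig. Without the block the adjusted p of RNF144B ran from 0.108 to 0.525 and from 0.064 to 0.392 when 1 array was left out. The numbers of all probe sets called were small and moved. For pacing in the free wall (1 called) array weights gave 2, only the groups compared 0, the replicate block 0, and leaving out 1 array 0 to 1. For pacing in septum (2 called) only the groups compared gave 1, the block 1, and leaving out 1 array 1 to 4. With regions averaged (1 called), leaving out an array number gave 0 to 1. Between regions in paced pigs (0 called) the block gave 1, and leaving out 1 array 0 to 7, the 7 without array 2 of the paced septum. Over both treatments (2 called) leaving out the lowest 50% gave 1, quantile normalisation once more 1, array weights 4, an intensity trend with a robust prior 4, the block 1, and leaving out 1 array 0 to 3.

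Differences near 0 changed sign: RNF150 with pacing averaged (0.07) ran from -0.041 to 0.191 when arrays were left out. RNF135 gave 0.18 with array weights and -0.79 to 0.23 with arrays left out for the difference of pacing effects (-0.14), 0.11 and -0.91 to 0.11 between regions in paced pigs (-0.26), and 0.018 with array weights over both treatments (-0.19). In control pigs FBXO32 ran from -0.24 to 0.11 and RNF135 from -0.38 to 0.055 between regions with arrays left out. Chosen after seeing the data, leaving out array 2 of the paced free wall moved the members at an unadjusted p under 0.05 to 8 of 124 for pacing in the free wall (2 with it), 10 in septum (4) and 20 between regions over both treatments (11). Over all tested probe sets the shares rose as well, from 4.56% to 7.01%, from 4.66% to 6.86% and from 7.83% to 14.3%. The cause was not tested.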

Other observations

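Of the 135 genes, 11 had more than 1 probe set, and for FBXL7, FBXL19 and FBXO2 the 2 probe sets held the same values. The second probe set of TRIM31, an antiviral TRIM ligase, gave a pacing effect in septum minus free wall of -1.12 (limma unadjusted p 0.0224), where the first gave -0.64. Both values are given only with array 2 of the paced free wall, the highest free wall array of the first probe set. The second probe set of RNF185, a ligase of the endoplasmic reticulum, gave 0.42 between septum and free wall of paced pigs (unadjusted p 0.019), where the first gave 0.19. The second probe set of FBXO33 gave -0.50 for pacing in the free wall (unadjusted p 0.0281), where the first gave -0.27. For RNF113A the second gave -0.31 there (unadjusted p 0.0449), where the first gave -0.05. For FBXL17 the second gave 0.11 between septum and free wall of paced pigs (unadjusted p 0.528), where the first gave -0.28, of opposite sign.

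Deubiquitinating enzymes, which remove ubiquitin, were counted beside the ligases. Of 27 measured, 5 were higher and 3 lower in septum over both treatments at a limma unadjusted p under 0.05, against 4.79% and 3.04% of all tested probe sets, and none passed after adjustment (smallest adjusted p 0.4). In paced pigs 2 were higher and 1 lower, and in control pigs 2 were higher. USP5, which recycles free ubiquitin chains, was higher by 0.31 in paced pigs and 0.34 in control pigs. USP18, which removes the interferon-induced modifier ISG15, differed by -0.79 with pacing in the free wall (unadjusted p 0.0199). Among 19 autophagy genes, SQSTM1 (p62) was higher by 0.34 in the septum than in the free wall of paced pigs (unadjusted p 0.0357). UBB, a ubiquitin gene, was higher there by 0.28 (unadjusted p 0.0135).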
